A study of Mus musculus with 1778 samples.

Results

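The cells described here are the 4 and 6 somite cells of 1 sequenced plate, the only plate number in the series that holds both of these stages. They were chosen by that number in the sample title, with the stage read from the labels, and make up 17.8% of the 1728 cells of the whole series that passed the filters (1778 cells before filtering). They comprise 180 cells of 6 somites and a smaller group of 4 somites, which is 41.6% of them. On the plate 89.5% of the 4 somite cells and 93.8% of the 6 somite cells were kept (15 and 12 were left out), because a cell needed at least 50000 reads outside the added spike-in RNAs and at least 1500 detected genes. The number is read as that of a plate because each title also carries a well position; its meaning is not stated in the labels.

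All cells came from C57BL/6 mouse embryos carrying Wnt1::Cre and Rosa26TdTomato, in which the Wnt1 promoter drives the Cre recombinase and TdTomato then marks every cell with a history of Wnt1 transcription and its descendants. Both groups carried both alleles, the labels give no treatment for either, and the groups are labelled by stage, 4 or 6 somites. The number of embryos behind each stage is not stated. Single cells were sorted by flow cytometry straight into lysis buffer, and their RNA was read by Smart-Seq2, a plate method that covers whole transcripts and has no molecular identifiers. No embryo or litter is named. Each stage was therefore treated as 1 pool of cells, no test was run, and the intervals printed below are 95% intervals that cover counting error only. A level is given in RPM, the reads of a gene summed over the cells of a stage and scaled to a total of 1000000 reads without spike-ins and without the 45S ribosomal precursor Rn45s. RPM is not corrected for transcript length, so levels are compared between stages and not between genes.

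The cranial neural crest is a migratory population that arises at the border of the neural plate. Its cells first express specifier transcription factors while they are still part of the neuroepithelium, then lose epithelial contacts and leave as Sox10-positive migrating cells that form facial cartilage, bone, nerves and pigment. The border between midbrain and hindbrain acts as a signalling centre nearby, through secreted FGF and Wnt proteins. In the mouse head, the stages compared here lie around the onset of this departure.

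The label was checked against defining markers. All cells are labelled as cranial neural crest, but Sox10, the defining transcription factor of migrating crest, had a read in 10 cells at 4 somites and in 13 of 180 cells at 6 somites once each cell was thinned to 50000 reads (7.81%, interval 3.81 to 13.9, and 7.22%, interval 3.90 to 12.03). Wnt1 itself, the gene of the driver, had a read in 53.9% and 39.4% of cells. Clustering of all the cells gave 8 clusters. Of these, 3 clusters with 79, 39 and 35 cells carried mostly neuroepithelial markers, 1 with 33 cells carried neural crest markers, 1 with 33 cells carried surface ectoderm markers and 3 with 89 cells stayed unnamed. One unnamed cluster was led by Flt1, Tek, Esam and Kdr, which are known in endothelium, together with Foxc2 and Alx1 of head mesenchyme. The cells are called Wnt1-Cre labelled cells below, as most did not carry the crest markers.

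Depth was high and similar at both stages. The median was 540328 gene reads per cell at 4 somites and 456138 at 6 somites, which summed to 70385024 and 83338968 reads. What differed was the share of spike-ins in the sum of spike-in and gene reads (without Rn45s), 0.594% at 4 and 6.73% at 6 somites. The share of Rn45s in all reads other than spike-ins also differed, 47.9% and 58.9%. At an equal 50000 reads, the median cell had 5678 detected genes at 4 somites and 5101.5 at 6 somites, and 85.1% of measured genes were detected in a smaller share of the 6 somite cells. A lower share of cells with a read is therefore not read as a difference below unless the RPM shows it too.

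The 2 stages also occupied different wells. Cells of 6 somites lay in well columns 1 to 12 and cells of 4 somites in columns 13 to 21, so that stage and position on the plate cannot be told apart. Within each stage, neighbouring columns split into 2 blocks. In columns 1 to 6 (94 cells of 6 somites), 91.5% of cells had reads of Y-linked genes and 2.13% had reads of Xist, the RNA of the inactive X chromosome. In columns 7 to 12 (86 cells of 6 somites), these shares were 43.02% and 46.5%. The shares were 50.5% and 39.6% in columns 13 to 18 (91 cells of 4 somites), and 35.1% and 54.1% in columns 19 to 21 (37 cells of 4 somites). Spike-in shares of the 4 blocks, in the same order, were 7.11%, 6.25%, 0.760% and 0.103%. The blocks were defined after these values were seen, and results are given for each block because the 6 somite pool was not uniform. The part that spike-in share or sorting had in any result was not tested, and cells with Y-linked reads alone are compared near the end.

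**Figure D1:**
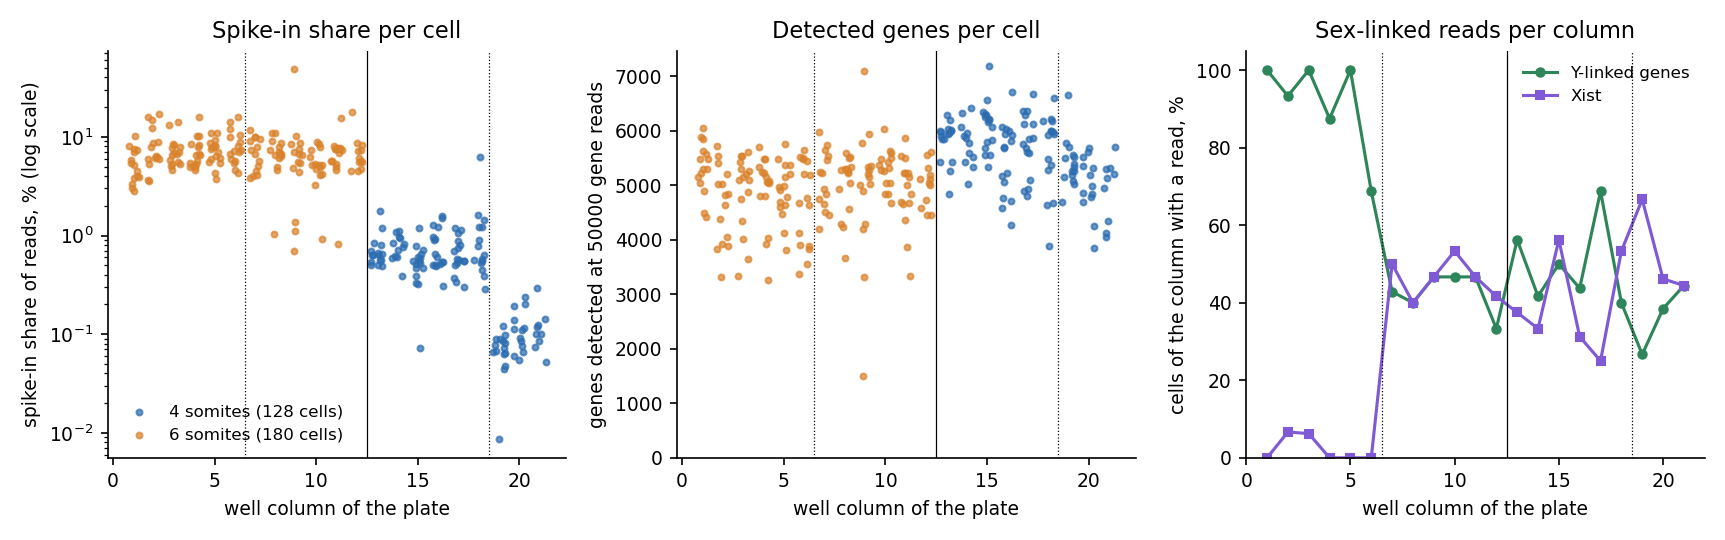
Each point is a cell of the plate, drawn by its well column, with the spike-in share of reads (Rn45s left out) in percent on a log scale (left) and the number of genes detected at 50000 reads (middle). The right panel gives the percent of cells of each column with a read of Y-linked genes or of Xist. The solid line divides 6 somites (columns 1 to 12) from 4 somites (columns 13 to 21) and dotted lines divide the blocks, whose spike-in shares were 7.11%, 6.25%, 0.760% and 0.103% from left to right.

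The comparison asks how the labelled cells changed over the interval of 2 somites when both stages were read on the same plate. Few genes differed by a large factor. Of 8799 genes with at least 10 RPM at 1 of the stages, 1.49% were at least 2-fold higher at 6 somites and 0.773% (68 genes) at least 2-fold lower. The median log2 ratio was 0.02, and 89.6% of genes lay within 1.5-fold. Most of the genes past 2-fold were weakly expressed, as only 14 of those higher and 2 of those lower reached 50 RPM at their higher stage. In 39 of the higher genes, more than 20% of the 6 somite reads came from 1 cell.

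These shares were smaller than those between blocks of 1 stage. Columns 1 to 6 against columns 7 to 12, both of 6 somites, gave 2.67% of measured genes at least 2-fold higher and 3.5% lower. Columns 19 to 21 against columns 13 to 18, both of 4 somites, gave 5.33% higher and 4.32% lower. Set against all 4 somite cells, columns 1 to 6 had 2.4% higher and 2.1% lower, and columns 7 to 12 had 2.46% higher and 1.56% lower. Smaller pools give larger ratios by counting and by the sampling of cells, and these shares are a description of these pools. Both 6 somite blocks lay above both 4 somite blocks in 98 of the higher genes (74.8%) and below both in 51 of the 68 lower genes (18.1% and 14.7% of all measured genes did so), though the same reads chose these genes.

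All ratios here are relative to the total of gene reads. Scaled instead to the spike-ins, whose reads per gene read were 12.1-fold higher at 6 somites, 99.9% of measured genes were at least 2-fold lower, and of the higher genes named below Il17rd, Acta2 and Actc1 had positive log2 ratios (0.21, 4.26 and 2.34) while the others did not, among them Spry1 (−2.32), Fgf8 (−1.51), Sox10 (−2.04), Crabp1 (−1.86) and Krt18 (−2.53). Whether the amount of RNA per cell, the amount of spike-in or the wells differed cannot be told apart.

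**Figure D2:**
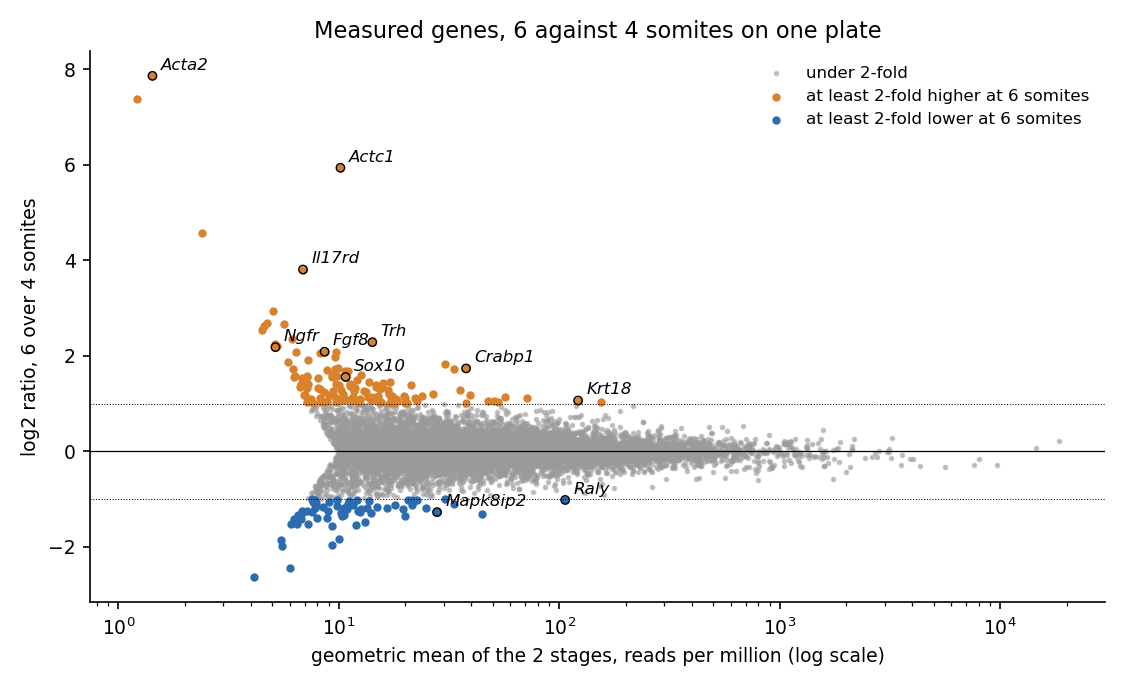
Each point is 1 of the 8799 measured genes, with the geometric mean of its RPM at the 2 stages on a log axis and the log2 ratio of 6 over 4 somites. Genes at least 2-fold higher (1.49%) are orange and those at least 2-fold lower (0.773%) are blue, dotted lines mark 2-fold, and most coloured points lie at low levels.

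Feedback genes of FGF signalling were among those higher at 6 somites. FGF ligands bind receptor tyrosine kinases and activate the ERK kinases, and the cell then transcribes feedback inhibitors of the pathway, such as the Sprouty proteins, the phosphatase Dusp6 and the membrane protein Il17rd (Sef). Il17rd stood at 1.83 RPM at 4 somites and 25.7 RPM at 6 somites, a log2 ratio of 3.81 (3.55 to 4.08). Over single cells its lowest and median values were 0 at both stages, and its highest value was 84.9 RPM at 4 and 545.5 RPM at 6 somites. It had a read in 5 cells (3.91%, interval 1.28 to 8.88) at 4 somites and in 49 of 180 cells (27.2%, interval 20.9 to 34.3) at 6 somites. The gene is thus seen in more cells at 6 somites although fewer genes were detected per cell there. All blocks shared the direction, with 34.3 RPM in columns 1 to 6, 15.1 in columns 7 to 12, 1.92 in columns 13 to 18 and 1.56 in columns 19 to 21. Among neuroepithelial-like cells Il17rd was at 0.788 RPM in 56 cells of 4 somites and 23.70 RPM in 97 cells of 6 somites. The mix of clusters within these cells differed, as cluster 2 held 39 of the 56 and 40 of the 97. In the unnamed clusters, which held 79.8% of its 4 somite reads, Il17rd was at 3.85 and 20.5 RPM.

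The other measured genes of the pathway differed less or hardly at all. Spry1, a Sprouty inhibitor, was at 22.69 and 54.9 RPM, a log2 ratio of 1.28 (1.19 to 1.36), and had a read in 34.4% and 49.4% of cells. Its level was 61.6 and 46.6 RPM in the 6 somite blocks (columns 1 to 6 and 7 to 12) and 19.99 and 30.6 RPM in the 4 somite blocks (columns 13 to 18 and 19 to 21), so the blocks of the 2 stages did not overlap. Etv5, an ETS factor induced by FGF, had a log2 ratio of 0.93, which was 1.35 with columns 1 to 6 and 0.17 with columns 7 to 12. Dusp6 had a log2 ratio of 0.81, from 66.9 to 117.6 RPM, with 137.2 and 93.2 RPM in the 6 somite blocks. Spry2 and Spred1, further feedback inhibitors, had log2 ratios of 0.10 and 0.12, and the phosphatase Dusp4 one of −0.49. Of the 7 measured members of the FGF and ERK response list, 2 were at least 2-fold higher (Il17rd and Spry1) and 0 lower, where 1.49% and 0.773% of all measured genes were, and the list median was 0.81 beside 0.02 for all genes.

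Fgf8 and Fgf17, ligands of the midbrain-hindbrain boundary, were also higher. Fgf8, the ligand that organises this boundary, was at 4.18 RPM at 4 somites and 17.8 RPM at 6, a log2 ratio of 2.09 (1.91 to 2.27). Its highest cell had 125.6 and 448.98 RPM, and the median cell had 0 at both stages. Its level was 26.6 RPM in columns 1 to 6, but 6.73 RPM in columns 7 to 12, within the range of the 4 somite blocks (3.26 and 6.87 RPM). Fgf17, a related ligand, had a log2 ratio of 1.34, and Pax8, a transcription factor of the same territory, of 1.42. With columns 7 to 12 alone these 2 ratios were −0.17 and −0.19, with both genes below the minimum level of 10 RPM in both pools. Fgf8 was among the leading genes of cluster 7 (39 cells) and Pax8 among those of cluster 1 (35 cells), both neuroepithelial-like. Cluster 7 made up 7.03% of cells at 4 somites and 16.7% at 6 somites, and cluster 1 made up 6.25% and 15%. Cluster 7 had 19 cells in columns 1 to 6, 11 in columns 7 to 12, 1 in columns 13 to 18 and 8 in columns 19 to 21. The part that this mix of clusters had in the ratios was not tested. Fgf15, a further ligand, went from 193.8 to 298.2 RPM, a log2 ratio of 0.62, and Wnt1 from 73.7 to 58.6 RPM, a log2 ratio of −0.33. Of 8 measured genes of this list 3 were at least 2-fold higher (1.49% of all measured genes) and 0 lower, and the median was 0.36 with all cells, 0.42 over the 8 genes measured with columns 1 to 6 and −0.16 over the 5 measured with columns 7 to 12. On the other plates, compared near the end, the list median was −0.17. There Fgf8, Fgf17, Pax8 and Sp8 had positive ratios, and Fgf15 (−1.09), Wnt1 (−1.17), Pax2 (−1.16) and En1 had negative ones.

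**Figure D3:**
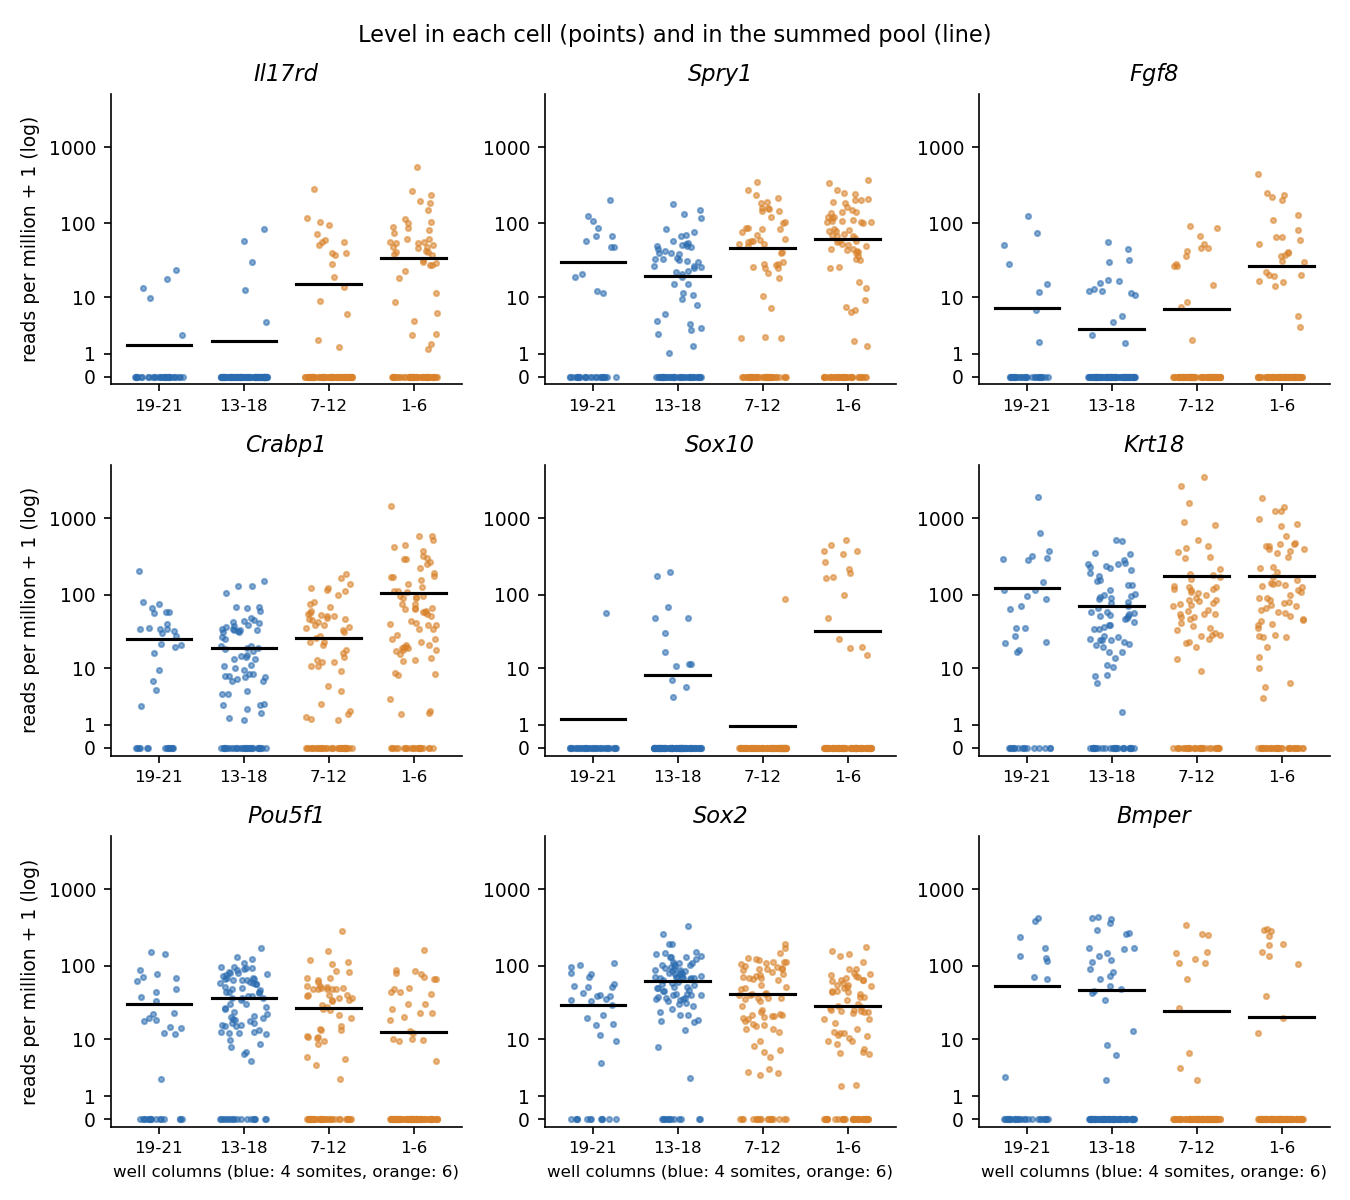
Each point is a cell, with its RPM plus 1 on a log axis, for 9 genes, and cells are grouped by block of well columns, 4 somites in blue (columns 19 to 21 and 13 to 18) and 6 somites in orange (columns 7 to 12 and 1 to 6), with a line at the level of the summed block. The line for Il17rd is at 1.56, 1.92, 15.1 and 34.3 RPM from left to right, while that for Sox10 is at 1.40, 7.91, 0.915 and 32.5 RPM.

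Genes of migrating crest were higher in the 6 somite pool as a whole, and this difference lay with columns 1 to 6. The crest-like cluster held 15 cells in columns 1 to 6 and 2 in columns 7 to 12. It held 14 cells in columns 13 to 18 and 2 in columns 19 to 21. Sox10 stood at 6.25 RPM at 4 and 18.4 RPM at 6 somites, a log2 ratio of 1.56 (1.41 to 1.72), with 0 in the median cell of both stages and 197.2 and 522.4 RPM in the highest cells. Its read count was concentrated in few cells. Of the 13 cells of 6 somites with a read, 12 lay in columns 1 to 6 and 1 in columns 7 to 12, and of the 10 cells of 4 somites 9 lay in columns 13 to 18. Its level was 32.5 RPM in columns 1 to 6 and 0.915 RPM in columns 7 to 12, against 7.91 and 1.40 RPM in the 4 somite blocks. The 2 blocks of 6 somites thus lay on either side of the 4 somite cells. In crest-like cells Sox10 was at 36.9 RPM in 16 cells of 4 somites and 183.04 RPM in 17 cells of 6 somites. Without the highest cell of each stage these levels were 22.3 and 163.4 RPM. Of these 17 cells, 15 lay in columns 1 to 6, and Sox10 was itself a marker that named the cluster.

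Crabp1, a binding protein for retinoic acid, had one of the larger differences among genes detected in many cells, from 20.70 to 68.96 RPM, a log2 ratio of 1.74 (1.65 to 1.82). Its median cell was at 7.76 and 18.8 RPM, and the highest cell of 6 somites at 1430 RPM. It was at 103.4 RPM in columns 1 to 6 but at 26.1 RPM in columns 7 to 12, close to the 19.02 and 25.6 RPM of the 4 somite blocks. In the 33 crest-like cells it was at 12.4 RPM in 16 cells of 4 somites and 187.1 RPM in 17 cells of 6 somites. The cell at 1430 RPM was one of these 17 and held 929 of their 1489 reads, and without the highest cell of each stage the levels were 9.75 and 76.6 RPM. In neuroepithelial-like cells Crabp1 was at 19.1 and 57.7 RPM. Most of the neuroepithelial-like cells of 4 somites lay in 1 cluster (cluster 2, with 39 of 56), whereas those of 6 somites were spread over clusters 2, 7 and 1 (40, 30 and 27 of 97).

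Several other crest genes followed the same blocks. Ngfr, a neurotrophin receptor of migrating crest, had a log2 ratio of 2.181, and Ets1, an ETS factor of cranial crest, of 1.03. Tfap2b, an AP-2 factor of the early crest, had a ratio of 2.24. With columns 7 to 12 as the 6 somite pool these ratios were −0.27 for Ngfr, −0.61 for Ets1 and −2.24 for Tfap2b. With columns 1 to 6 they were 2.91, 1.66 and 3.06. In the contrast with columns 7 to 12, Ngfr and Tfap2b were below the minimum level of 10 RPM in both pools, so no reversal is read for them. Only 2 cells of columns 7 to 12 were crest-like, and how far this set the ratios was not tested. In crest-like cells Ngfr was at 9.78 RPM at 4 somites and 89.8 RPM at 6 somites. It had a read in 3 of 16 and 6 of 17 of these cells, and without the highest cell of each stage the levels were 7.05 and 55.3 RPM. Ets1 was at 124.8 and 552.02 RPM in crest-like cells, and Tfap2b at 15.8 and 108.4 RPM. Foxd3, an earlier crest gene, went the other way, with 62.4 and 29.9 RPM. Ngfr, Ets1, Tfap2b and Foxd3 were, like Sox10, among the markers that named the cluster. Of 8 measured genes of the migrating crest list 4 were at least 2-fold higher (Ngfr, Crabp1, Sox10 and Ets1), beside 1.49% of all measured genes, and 0 lower. The members Lmo4 and Nrp2 had ratios of −0.63 and −0.24, and the median was 1.01. It was 1.66 over the 11 genes that reached the minimum level with columns 1 to 6 and −0.49 over the 4 that did with columns 7 to 12. For Ets1 the 4 somite blocks also differed, with 25.5 RPM in columns 13 to 18 and 70.2 RPM in columns 19 to 21.

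Earlier crest genes mostly differed by less than 2-fold between the stages, although several also stood higher in columns 1 to 6 than in columns 7 to 12. Sox9, a specifier that is on before departure, was at 83.3 and 62.5 RPM, a log2 ratio of −0.42. Its level was 82.6 RPM in columns 1 to 6, 37.4 in columns 7 to 12, 96.7 in columns 13 to 18 and 44.1 in columns 19 to 21, so the stages overlapped. Foxd3, a specifier that keeps crest progenitors multipotent, was at 9.02 and 4.94 RPM, below the minimum level of 10 RPM, with a log2 ratio of −0.87. Snai1, a repressor of epithelial cadherin, had a ratio of 0.38, with 21.4 RPM in columns 1 to 6 and 9.56 RPM in columns 7 to 12, and Tfap2a, a second AP-2 factor, one of 0.51 at the low levels of 3.04 and 4.33 RPM. Of 7 measured early specifiers 1 (Tfap2b) was at least 2-fold higher and 0 lower, where 1.49% and 0.773% of all measured genes were. Their median was 0.14. Between the 2 blocks of 6 somites, 4 of the 7 were at least 2-fold higher in columns 1 to 6 and 0 lower, with a median of 1.12, beside 2.67% and 3.5% of all genes measured in these blocks. Twist1, a factor of crest-derived mesenchyme, stayed below the minimum level at both stages, with 1.961 and 2.80 RPM. Pdgfra, a growth factor receptor of the same mesenchyme, had a ratio of 0.85, with 9.35 RPM in columns 1 to 6 and 24.4 RPM in columns 7 to 12, the reverse order to Sox10. Of the 4 measured ectomesenchyme genes 0 were called in either direction. At the shares of all measured genes (1.49% and 0.773%) so short a list holds few or no calls, and nothing is read from this count.

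Neural plate border genes gave a mixed picture. Pax3, a border and dorsal neural tube factor, was at 38.5 and 40.5 RPM, a log2 ratio of 0.07. Prdm1, a transcriptional repressor, had a ratio of 1.16. Of 8 measured members of this list 1 was at least 2-fold higher and 0 lower, with a median of 0.01. Of all measured genes 1.49% were higher and 0.773% lower, and nothing is read from this count.

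Few epithelial genes passed 2-fold, and members of both epithelial lists had ratios of either sign. Krt18, a keratin of simple epithelia, went from 84.2 to 176.04 RPM, a log2 ratio of 1.06 (1.02 to 1.11), with 174.6 and 177.8 RPM in the 2 blocks of 6 somites and 71.1 and 122.4 RPM in those of 4 somites. Cldn4, a tight junction protein, had a ratio of 2.05 and was more than 2-fold higher with either block of 6 somites (1.22 with columns 7 to 12). At 6 somites, 72.5% of the reads of Krt18 and 85.7% of those of Cldn4 came from the 24 cells of the surface ectoderm-like cluster, and without that cluster and the unnamed clusters the ratio of Krt18 was −0.10. The cluster held 9 cells at 4 somites (7.03%) and 24 at 6 somites (13.3%). Its share was 14.9% and 11.6% in the 6 somite blocks, 3.30% in columns 13 to 18 and 16.2% in columns 19 to 21. Within the cluster Cldn4 was at 56.3 and 101.4 RPM, and Krt18 at 425.1 and 906.2 RPM. Of 10 measured surface ectoderm genes 2 were called, Krt18 among them, and of 10 epithelial junction genes 1 (Cldn4), with medians of 0.16 and −0.06. Of all measured genes 1.49% were at least 2-fold higher and 0.773% lower, and nothing is read from so few calls. Krt8, the keratin partner of Krt18, had a ratio of 0.76, the claudins Cldn6 and Cldn7 had 0.77 and 0.53, and the adhesion protein Epcam and the AP-2 factor Tfap2c had −0.09 and −0.64. Cdh1 (E-cadherin) was at 108.9 and 80.5 RPM, a ratio of −0.44, and Cdh2 (N-cadherin) at 140.2 and 128.2 RPM, a ratio of −0.13. In crest-like cells Cdh1 was at 154.9 RPM at 4 somites and 35.6 RPM at 6 somites. It had a read in 14 of 16 and 4 of 17 of these cells, and 15 of the 17 lay in columns 1 to 6. Cdh2 was at 105.6 and 114.1 RPM in crest-like cells. The lower level of Cdh1 at 6 somites was not particular to crest-like cells. In the unnamed clusters Cdh1 was at 64.97 and 20.96 RPM. It was at 372.6 and 247.3 RPM in surface ectoderm-like cells and at 91.21 and 69.29 RPM in neuroepithelial-like cells. Of 12 measured genes of epithelial-mesenchymal transition and matrix 1 was called, beside the same shares of all measured genes. It was Tgfbi, an adhesive matrix protein, with a ratio of 1.39, and the list median was 0.04.

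No measured pluripotency gene differed by 2-fold between the whole pools of the stages, and Pou5f1 came closest. Pou5f1 (Oct4), a core factor of pluripotent cells, was at 35.9 RPM at 4 and 19.3 RPM at 6 somites, a log2 ratio of −0.90 (−0.99 to −0.81). Its median cell was at 20.4 and 0 RPM, its highest at 172.1 and 285.6 RPM, and it had a read in 53.1% and 33.9% of cells. The level was 12.8 RPM in columns 1 to 6, 27.3 in columns 7 to 12, 37.6 in columns 13 to 18 and 30.9 in columns 19 to 21, so both 6 somite blocks lay below both 4 somite blocks, but the 2 blocks of 6 somites lay further apart than columns 7 to 12 did from columns 19 to 21. In neuroepithelial-like cells it was at 40.8 and 20.4 RPM. In crest-like cells it was at 48.2 RPM (16 cells of 4 somites) and 8.42 RPM (17 cells of 6 somites), and in unnamed clusters at 28.5 and 26.8 RPM. Nanog, its partner, was at 15.4 and 9.46 RPM, a ratio of −0.70, and Sox2, which also marks neural progenitors, at 54.5 and 34.8 RPM, a ratio of −0.65. The 4 somite blocks of Sox2 (62.8 and 30.3 RPM) enclosed one of the 6 somite blocks (29.2 and 41.8 RPM). Otx2, a head organiser gene shared with the primed epiblast, had a ratio of −0.51. Of the 19 core pluripotency genes 5 were measured and of the 10 primed epiblast genes 5. Of these, 0 were called in either direction, where 1.49% (higher) and 0.773% (lower) of all measured genes were. Nothing is read from these counts. The medians of the 2 lists were −0.65 and −0.39. With columns 7 to 12 alone these medians were −0.27 and 0.13.

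Among the neural lists, 2-fold was passed by 0 of 10 measured neural progenitor genes (median 0.04) and 0 of 9 forebrain genes (median −0.26). No member of the S phase list (43 measured, median 0.07) or the G2M list (51 measured, median 0.04) was called, nor any of 17 measured glycolysis and hypoxia genes (median −0.04) or 19 ribosome biogenesis genes. Of 13 immediate early and stress genes 0 were called, with a median of 0.01. The Wnt, BMP and TGFb, Notch and Hedgehog response lists had 0 calls in 8, 7, 4 and 8 measured genes, and the retinoic acid list had 1 call in 6, which is Crabp1 again, a member of both lists. At the shares of all measured genes (1.49% higher and 0.773% lower), lists of these sizes hold few or no such genes, and nothing is read from these counts.

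**Figure D4:**
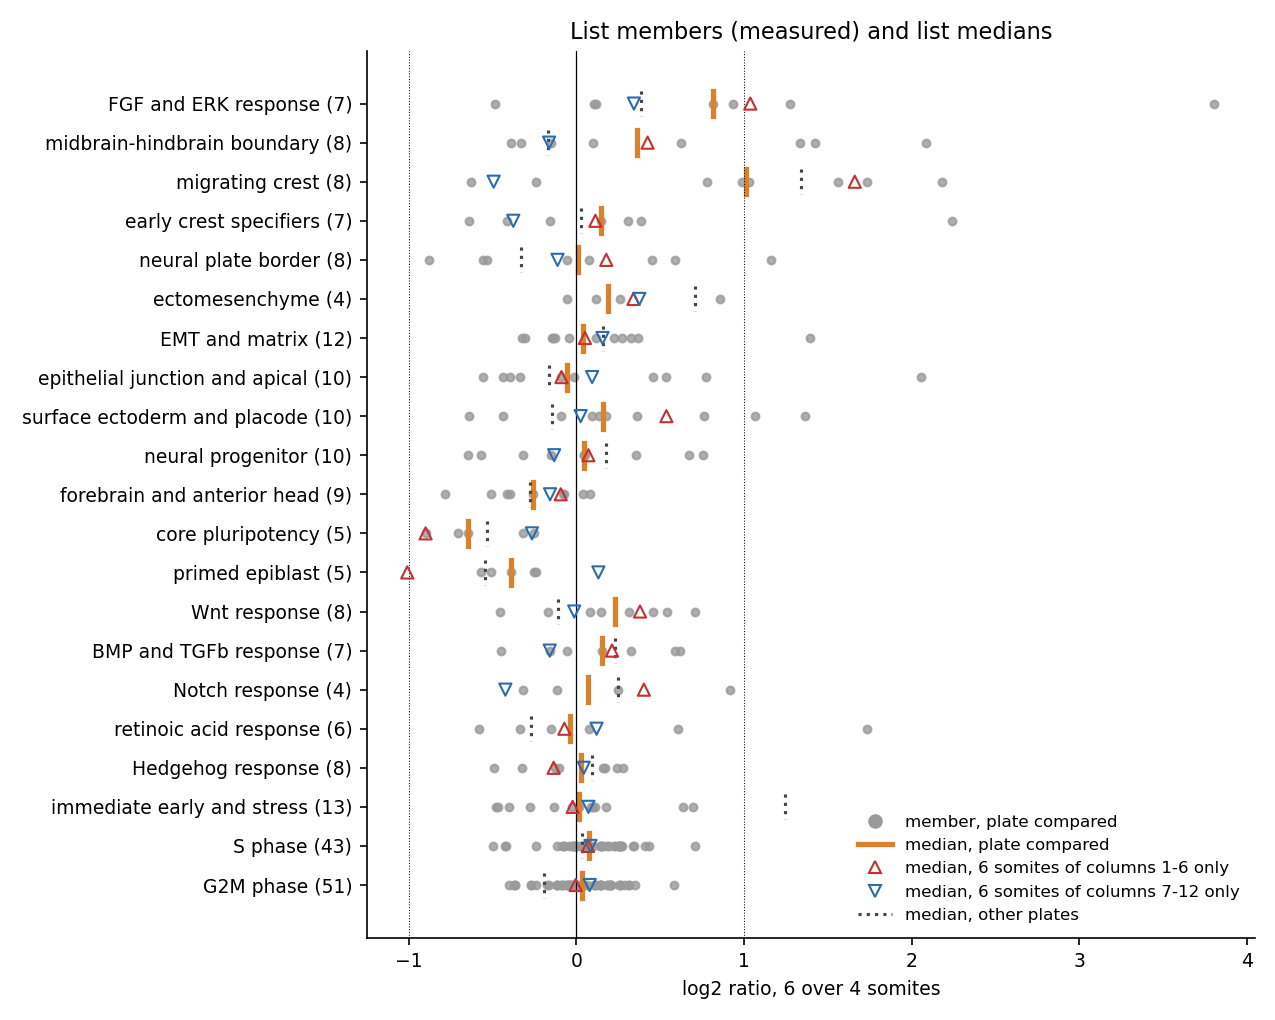
Grey points are the measured members of each list (their number in brackets) by log2 ratio of 6 over 4 somites, the orange bar is the list median, triangles give the median with the 6 somite cells of columns 1 to 6 (up) or 7 to 12 (down) alone, and the dotted bar gives the median on the other plates. The migrating crest median is 1.01 with all cells, 1.66 with columns 1 to 6 and −0.49 with columns 7 to 12.

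The rule for naming the largest ratios asked for 50 RPM, a read in 20% of cells, no cell with over 20% of the reads and a 2-fold ratio in the mean over cells too, and it left 3 higher genes, Crabp1 and Spry1 among them, and 0 lower genes. With the minimum lowered to 20 RPM, a step taken after the values were seen, 12 higher and 9 lower genes passed. Beside Il17rd, Crabp1 and Spry1, the higher ones included Fam149a (1.60), Lix1 (1.38), Nbea (1.35), Rcor1 (1.35), Bach1 (1.25), Zfp866 (1.20), Irx2 (1.16) and Sepsecs (1.13). Rcor1, the corepressor CoREST, had nearly the same level in both 6 somite blocks (25.07 and 25.14 RPM) and in both 4 somite blocks (9.72 and 10.2 RPM). Fam149a, by contrast, was at 33.9 RPM in columns 1 to 6 and 7.19 RPM in columns 7 to 12.

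The 9 lower genes included several enzymes. Pcx (pyruvate carboxylase) had a log2 ratio of −1.35, from 31.9 to 12.50 RPM, and Oxct1, an enzyme of ketone body use, a ratio of −1.07. Spr (sepiapterin reductase) was at −1.20 and the kinase Stk11 (Lkb1) at −1.18. The others were Sez6 (−1.29), Mapk8ip2 (−1.27), Vrtn (−1.17), Nkain1 (−1.12) and Bmper (−1.11), a secreted BMP regulator. Bmper was at 48.9 and 22.74 RPM and separated the blocks, with 20.70 and 25.3 RPM at 6 and 47.2 and 53.8 RPM at 4 somites. For Spr, Stk11 and Vrtn the difference lay with columns 13 to 18 of 4 somites, as columns 19 to 21 gave ratios of 0.00, 0.64 and 0.16. Raly, an RNA-binding protein, and Xist were the 2 lower genes over 50 RPM. Raly had 151.3 and 74.8 RPM, with 181.4 RPM in columns 13 to 18 and 62.9 RPM in columns 19 to 21. It was named after its values were seen, as was Ywhag, an adaptor protein that binds phosphorylated partners (218.2 and 115.7 RPM, ratio −0.92).

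Some of the largest ratios rested on very few cells. Acta2 (smooth muscle actin) had 6 reads at 4 somites and 1785 at 6 somites, of which 95.01% came from 1 cell. Actc1 (cardiac actin) was at 1.29 and 79.5 RPM with 97.1% of the 6 somite reads in 1 cell. Myl7, an atrial light chain, had a ratio of 1.41 with 94.5% of reads in 1 cell, and Trh, the precursor of thyrotropin-releasing hormone, one of 2.29 with 39.1% in 1 cell. All 4 were higher in columns 7 to 12 than in columns 1 to 6. The endothelial list had 5 measured genes, 0 calls (1.49% of all measured genes were called higher and 0.773% lower) and a median of −0.62. That median was 4.18 over 3 measured genes with columns 13 to 18 as the 4 somite pool and −2.49 over 8 with columns 19 to 21, so the 4 somite blocks differed from each other. Its summed level per cell ranged from 0 to 6603 RPM at 4 and from 0 to 6534 RPM at 6 somites with a median of 0 at both. Of the 10 blood genes 7 had 0 reads at each stage.

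The main ratios were recomputed in cells matched on a single property, a step added after the data were seen. In cells with Y-linked reads alone, 59 of 4 somites and 68.3% of the 6 somite cells, the log2 ratio was 4.71 for Il17rd, 1.72 for Spry1, 3.19 for Fgf8, 1.39 for Sox10, 2.27 for Crabp1 and 0.83 for Krt18. It was −1.44 for Pou5f1, so each of these genes had the same direction as in all cells. In cells with 5000 to 6000 detected genes the ratios were 5.55 for Il17rd, 1.18 for Spry1, 2.14 for Fgf8, 1.46 for Sox10, 1.90 for Crabp1, 0.81 for Krt18 and −1.06 for Pou5f1. Neither subset removes the column blocks, since most of the Y-linked cells of 6 somites (86) lay in columns 1 to 6.

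The same contrast was formed from plates that share no cell with these, 92 cells of 4 somites from 1 plate number and the 6 somite cells of 4 further plate numbers. No plate number there held both stages. Cells with Y-linked reads made up 2.17% of that 4 somite pool and 0%, 20.8%, 29.8% and 67.3% of the 6 somite pools, while on the plate compared here the share was 46.1% at 4 and 68.3% at 6 somites. The part of sex or plate in this contrast was not tested. On these plates 2.22% of 8796 measured genes were at least 2-fold higher at 6 somites and 0.693% lower. Of the genes higher on the plate compared here, 97 were measured there, 74 (76.3%) had the same direction and 24 (24.74%) were at least 2-fold higher, beside 54.2% and 1.52% of all genes measured in both. Of the 68 lower genes 43 were measured, 21 (48.8%) had the same direction and 3 (6.98%) were at least 2-fold lower, beside 45.8% and 0.436% of all genes. At least 2-fold in the opposite direction were 1 of the higher genes and 3 of the lower genes. The shares for the higher genes thus stood well apart from those of all genes, and the share of the lower genes with the same direction did not. The 2-fold share of the lower genes (6.98% beside 0.436%) rested on 3 genes, and as many were 2-fold the other way. All genes were not matched for level to the called genes, most of which were weakly expressed.

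Read pool by pool, with 2 pools of 4 somites and 5 of 6 somites, 4.66% of the measured genes were higher in every 6 somite pool than in every 4 somite pool and 5.14% lower. Both pools of the plate compared here are among these pools, and their reads helped to choose the genes named below. With so few pools some genes separate by order alone, so membership is a description and no support across plates. Il17rd was in the first group (higher at 6 somites), with 1.83 and 12.98 RPM at 4 somites and 15.73 to 25.7 RPM at 6 somites. The 4 somite pool of the plate compared here was the lower of the 2, and on the other plates the log2 ratio was 0.65. Fgf8 (4.18 and 8.39 against 14.3 to 17.8 RPM), Dusp6 (66.9 and 107.2 against 117.6 to 151.8 RPM) and Etv5 (39.2 and 67.01 against 69.1 to 164.1 RPM) were in the same group. So were Cldn4, Pdgfra and Lix1, while Sox2, Bmper and Mapk8ip2 were in the second. Crabp1 overlapped by a narrow margin, with 20.70 and 69.4 RPM at 4 and 67.6 to 158.97 RPM at 6 somites.

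Sox10 showed how far pools of 1 stage can differ, with 6.25 and 31.8 RPM at 4 somites and 18.4 to 453.6 RPM at 6 somites, where the plate compared here was the lowest of the 5. Ngfr, Ets1 and Tfap2b were also lowest there among the 6 somite pools. Pou5f1 was at 35.9 RPM in the 4 somite pool of this plate but at 8.49 RPM in the other, within the 3.748 to 19.3 RPM of the 6 somite pools, and on the other plates, where both levels were below 10 RPM, its ratio was −0.27. Immediate early and stress genes had a median of 0.01 on this plate and of 1.25 on the others. Pcx, Spr, Stk11 and Raly, lower here, had ratios of 0.71, 0.60, 0.39 and 0.42 on the other plates.

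**Figure D5:**
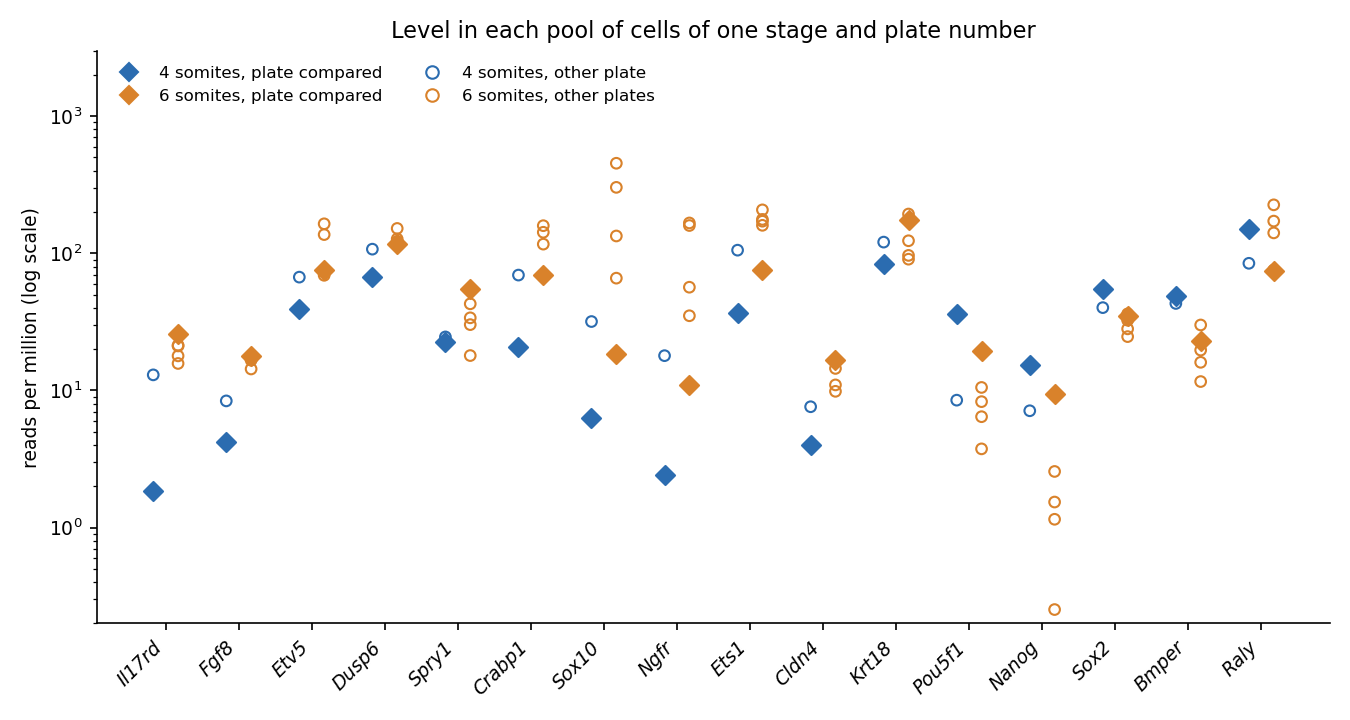
Each symbol is the RPM of a gene, on a log axis, in the summed cells of 1 stage on 1 plate number, with 4 somites in blue and 6 somites in orange and filled diamonds for the plate compared here. Il17rd, Fgf8, Etv5 and Dusp6 are higher in all 5 orange pools than in both blue ones, whereas the orange pools of Sox10 run from 18.4 to 453.6 RPM and overlap the blue ones. The reads of the filled diamonds helped to choose these genes.

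Of the genes on which the results turn, Il17rd lies on chromosome 14 from 27038941 to 27107286 on the plus strand and Sox10 on chromosome 15 from 79154908 to 79165240 on the minus strand. Fgf8 lies on chromosome 19 from 45736798 to 45742915 (minus), Crabp1 on chromosome 9 from 54764748 to 54773110 (plus) and Pou5f1 on chromosome 17 from 35506018 to 35510772 (plus). Krt18 lies on chromosome 15 from 102028180 to 102032027 (plus). All are protein-coding genes of the GENCODE vM21 annotation on GRCm38 (mm10), matched by symbol, and reads were summed over the whole gene.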

How the data were processed

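The deposited table holds counts, whole reads for each gene in each cell with no normalization and no molecular identifiers, as its values show. Per the submitters' processing notes, bcl2fastq 2.18, STAR 2.6 and the build mm10 were used. Neither read counter nor annotation is given in the sources used here. Of the cells on plate number 7350590, 128 of 143 (4 somites) and 180 of 192 (6 somites) were kept, and their reads were summed per stage. The log2 ratio of RPM used 0.5 added reads, with exact conditional binomial intervals (scipy 1.17.1). Sums of up to 3 reads at both stages gave no ratio, and a sum of 0 was set at 3. Intervals treat reads as independent, which without molecular identifiers they are not. Detection used random thinning to 50000 reads. Clusters came from scanpy 1.11.5 (Leiden, 2000 variable genes, 30 components, 15 neighbours, resolution 1) and were named from at least 3 markers. No doublet caller was run. edgeR 4.0.16 and DESeq2 1.42.0 served for scaling alone.

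Genes were named by a rule: up to 15 in each direction with at least 50 RPM, a read in 20% of cells, a 2-fold ratio in the mean over cells and at most 20% of reads in 1 cell, then the 4 largest of each of 34 lists, and key genes. The members and lists were chosen with earlier results of these data known. Column blocks, the 20 RPM minimum, Acta2, Actc1, Raly and Ywhag were added after values were seen. The ratios were tested on simulated data with 200 genes changed, drawn with counting error alone from 1 profile shared by all cells. The simulation held no cell types, column blocks or single high cells, so it checks the arithmetic of the ratios only. Some genes that met the rule are not reported here.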

Additional observations from a re-analysis of the deposited data

How the results depend on the processing

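In the main comparison 1.49% of genes were higher and 0.773% lower by 2-fold or more (65.8% of these were higher). Pairs of percentages below give the same shares. Of the log2 ratios of genes and list medians that were 2-fold or more in the main comparison, 60 gene ratios and 5 list medians, counted over all alternatives, changed sign. Smaller ones that did so are not counted. Scaling to the spike-ins, whose reads per gene read differed 12.1-fold, moved the median gene to −3.57 and gave 0.0341% and 99.9% (0.0341% of these higher). Under it Spry1 was −2.32, Fgf8 −1.51, Fgf17 −2.26, Pax8 −2.17, Sox10 −2.04, Ngfr −1.41, Crabp1 −1.86, Ets1 −2.56, Tfap2b −1.35, Prdm1 −2.43, Cldn4 −1.54, Krt18 −2.53, Tgfbi −2.20, Fam149a −1.99, Lix1 −2.21, Nbea −2.24, Rcor1 −2.24, Bach1 −2.34, Zfp866 −2.40, Irx2 −2.43, Sepsecs −2.46, Trh −1.31 and Myl7 −2.19, with −2.59 for the median of migrating crest and −2.19 for the median of cardiac muscle. Keeping Rn45s in the totals moved the median gene to −0.33 and gave 0.143% and 1.84% (7.19% of these higher). No minimum level gave 11.99% and 10.5%, and a higher one 0.319% and 0.0456%. Neuroepithelial-like cells alone gave 3.02% and 2.41% (55.6% of these higher), with Sox10 −0.52, Ngfr −0.61, Prdm1 −0.79 and the median of migrating crest −0.27. Without cells of other types the shares were 2.46% and 1.80%, with Prdm1 −0.72 and Krt18 −0.10. Without the highest cell Myl7 was −2.13. On other plates Fam149a was −0.10, Rcor1 −0.0433, Zfp866 −0.0396, Pcx 0.71, Sez6 0.20, Spr 0.60, Stk11 0.39, Nkain1 0.0900 and Raly 0.42.

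The next alternatives were chosen after seeing the data. Other plates with over 1% spike-in reads gave 2.54% higher, with Fam149a −0.14, Zfp866 −0.0156, Pcx 0.74, Sez6 0.0351, Spr 0.31, Stk11 0.0572 and Raly 0.17. Cells with Y-linked reads gave 3.41% and 1.72%, and cells with 5000 to 6000 detected genes 2.23% and 1.49%. Columns 1 to 6 gave 2.40% and 2.10%, with Acta2 −0.39, Trh −0.42 and Myl7 −3.70. Columns 7 to 12 gave 2.46% and 1.56%, with Fgf17 −0.17, Pax8 −0.19, Sox10 −2.75, Ngfr −0.27, Ets1 −0.61, Tfap2b −2.24, Fam149a −0.0103 and the median of migrating crest −0.49. Of these genes, all but Ets1 were below 10 RPM in both pools of that contrast. Columns 13 to 18 gave 2.56% higher. Columns 19 to 21 gave 4.37% and 3.21%, with Spr 0.00400, Stk11 0.64, Vrtn 0.16, Raly 0.25, Myl7 −0.23 and the median of cardiac muscle −0.45. The causes were not tested. TMM and size factor scaling, the cell filters, thinning and 5 added reads kept both gene counts within 1.5 times. Depth limits genes under 10 RPM and those read in few cells. No paired analysis was possible because each stage is 1 pool whose cells carry no shared replicate numbers.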
